A study of Arabidopsis thaliana with 12 samples.

Results

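The ABA response that remains in Arabidopsis thaliana seedlings lacking most B2 and B3 RAF protein kinases was measured in 6 of the 12 RNA sequencing libraries of the series, chosen by genotype and treatment. These were 3 libraries of OK100-oct seedlings treated with abscisic acid (ABA) and 3 libraries of untreated OK100-oct seedlings. The other 6 libraries were 3 of wild type (Col-0) seedlings with ABA and 3 of untreated wild type seedlings, and they serve here only to show where the mutant response differed. OK100-oct is a gene-edited line in the Col-0 background with null mutations in 8 RAF genes, RAF3 to RAF5 and RAF7 to RAF11. The study gives no null mutation in other RAF genes of this line. The mutant carries the label m9 and was taken as OK100-oct because the study names this line as the one sequenced, although the label alone does not tell it from OK100-nonu, which lacks RAF6 too. The labels give whole seedlings of 12 days, whereas the methods give a slightly older age, and neither states the dose or duration of ABA for these libraries. All mutant libraries come from 1 line, and nothing in the labels says that the 3 libraries of a group came from separate cultures, so the p values measure the spread between these libraries.

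ABA is the plant hormone of drought, salt stress and seed dormancy. It is bound by receptors of the PYR/PYL/RCAR family, which then hold back clade A protein phosphatases of type 2C (PP2Cs). Released from these phosphatases, SnRK2 kinases phosphorylate transcription factors of the bZIP group A (the ABFs and ABI5), which bind ABA-responsive elements (ABREs) in promoters. B2 and B3 RAFs are kinases that phosphorylate SnRK2s in this pathway. The comparison of OK100-oct with and without ABA asks which genes still respond when 8 of these kinases are missing.

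The total count per library was between 20981219 and 25494850 in OK100-oct with ABA and between 22265884 and 24048676 in untreated OK100-oct, so that 3 counts in a library corresponded to between 0.112 and 0.145 counts per 1000000 (CPM). CPM here is scaled to the library total after TMM normalization, which takes the bulk of the genes as unchanged between libraries. The TMM factors were between 0.957 and 0.985 in OK100-oct with ABA and between 1.071 and 1.111 without. On the first principal component, which held 78.3% of the variance, the 3 OK100-oct ABA libraries lay between 28.7 and 32.7, the untreated OK100-oct libraries between -89.8 and -71.5, the wild type ABA libraries between 108.5 and 119.4 and the untreated wild type libraries between -75.5 and -48.1. The labelled tissue was checked with 5 marker genes of green tissue, whose summed level was between 24576 and 26744 CPM in OK100-oct with ABA and between 26248 and 31558 CPM without, and with 6 root markers, between 1691 and 1978 CPM with ABA and between 2296 and 2785 CPM without. None of the 5 green markers passed the test, and of the 6 root markers 1 was higher (CASP1, log2 fold change 0.51) and 3 were lower with ABA (PYK10 -0.54, SHR -0.59 and PLT1 -0.63). Their part in the results that follow was not tested, and in whole seedlings fewer cells of a type and less RNA per cell cannot be told apart. Of the 6 seed storage protein genes none had enough counts to be tested, but 41 counts of CRA1 and 21 of CRC were found in OK100-oct ABA replicate 2, while no other OK100-oct library had more than 3 counts of any of the 6. That library also had the highest of the 3 ABA values for the late embryogenesis genes LEA7, AT3G17520, AT3G02480, LEA4-5 and GEA6. The same held for HAI1, HAI2, HAI3, RD29B, RD29A and RD26, which are not late embryogenesis genes, but not for BGLU24 and ABI1. The values of all these genes are given below, and the part of this library in them was not tested. Without this library 751 genes were induced and 536 repressed. The 8 mutated RAF genes were all still transcribed. With ABA, 3 of them were slightly higher (AT3G06620 0.77, RAF5 0.61 and RAF11 0.24 on the log2 scale) and none lower, and none of the 8 passed the test of a difference from the wild type in its ABA response.

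ABA changed the transcript level of many genes in OK100-oct. Of 20617 tested genes, 733 (3.56%) were induced and 500 (2.43%) repressed at least 3-fold with an adjusted p below 0.05. Adjusted p values are from edgeR's quasi-likelihood test with the Benjamini-Hochberg method over all tested genes. By the adjusted p alone 5348 genes (25.9%) rose and 5372 (26.1%) fell, which is the background against which smaller changes below must be read. By the same rule the wild type induced 1481 genes (7.18%) and repressed 1476 (7.16%). The test of the difference between the genotypes passed in 2994 tested genes (14.5%) against the sign of the OK100-oct change. It passed in 753 (3.65%) along that sign, which was taken whether or not the OK100-oct change itself passed. The 753 therefore include genes such as AT1G49570, which fell in the wild type and did not pass in OK100-oct. With an adjusted p below 0.05 in OK100-oct also required, the difference lay along the sign in 267 genes. Scaling by library totals alone, without TMM factors, moved the median log2 fold change of all genes in OK100-oct by -0.17, and the counts then became 600 induced and 623 repressed. The share of higher genes among those past the adjusted p alone went with it, being 49.9% with TMM factors and 32% with totals alone. Fold changes are therefore relative to the bulk of the genes.

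The genes that OK100-oct called mostly changed in the wild type too, and there by more. Of the 733 induced genes 728 had the same direction in the wild type, and of the 500 repressed genes 499 did. The median log2 fold change of the induced genes was 2.25 in OK100-oct and 3.27 in the wild type, and that of the repressed genes was -2.15 in OK100-oct and -2.97 in the wild type. With genes at 0 in a whole group set to their bound against 3 counts per library, these medians were 2.17, 3.20, -2.12 and -2.82 in the same order. Of the induced genes, 267 had a smaller response than in the wild type by the test of the difference, 14 had a larger one, and for 452 no difference was shown. For the repressed genes these counts were 104, 6 and 390. All these genes were chosen for their change in OK100-oct. In OK100-oct 111 induced genes changed at least 10-fold, 40 at least 30-fold and 16 at least 100-fold, against 50, 6 and 1 of the repressed genes. The 3 ABA values did not overlap the 3 control values in 727 induced and 495 repressed genes, against 65% of all tested genes. The genes were called from these same values, so this separation follows largely from the call and adds no support to it.

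**Figure D1:**
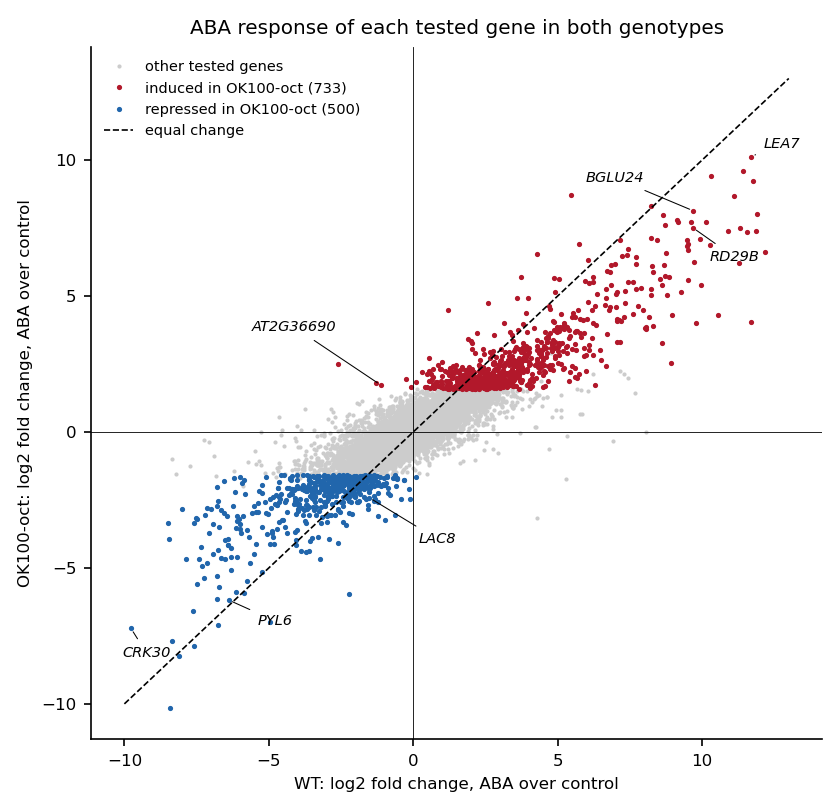
ABA response of each of the 20617 tested genes, with the log2 fold change (ABA over control) in OK100-oct on the vertical axis and in the wild type on the horizontal axis. Genes called in OK100-oct are red (733 induced) or blue (500 repressed), other genes are grey, and most coloured points lie between the horizontal axis and the dashed line of equal change.

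The most strongly induced genes encoded late embryogenesis abundant (LEA) proteins, which accumulate in drying seeds and water-stressed tissue, and clade A PP2Cs, which switch ABA signaling off. LEA7 (AT1G52690) had 221, 235 and 232 CPM in the 3 OK100-oct libraries with ABA, against 0.112, 0.329 and 0.163 CPM in the 3 without. The groups were far apart, by 1136-fold in the means (log2 fold change 10.13, standard error 0.26, adjusted p = 1.05e-11). In the wild type LEA7 reached 3240.2 ± 159 CPM (SD, n = 3) with ABA, against 0.978 ± 0.418 CPM without. AT3G17520, a further LEA gene, had 50.9, 62.9 and 52.7 CPM with ABA and 0.112, 0.0823 and 0 CPM without ABA in OK100-oct, and as its control values averaged below 3 counts per library, it was 465-fold higher against that level (adjusted p = 8.41e-11). AT3G02480, also of the LEA family, had 38.5, 44.7 and 43.7 CPM with ABA and 0.15, 0.123 and 0.286 CPM without. LEA4-5 had 114, 136 and 129 CPM with ABA, against 0.3, 0.905 and 0.613 CPM without. In each of these genes the ABA libraries lay close together. That ABA and control values do not overlap was a condition for being named among the largest folds.

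All 3 HIGHLY ABA-INDUCED PP2C genes were among the 10 genes with the largest fold. HAI1 (AT5G59220) had 77.7, 94.8 and 89.3 CPM with ABA in OK100-oct, against 0.374, 0.411 and 0.449 CPM without, a 212-fold difference (log2 fold change 7.71, standard error 0.19, adjusted p = 1.00e-11). HAI2 had 20.4, 24.1 and 21.2 CPM with ABA, against 0, 0.0823 and 0 CPM without, which were 0, 2 and 0 counts. HAI3 had 18.9, 21.7 and 20.6 CPM with ABA and 0.15, 0.0411 and 0.123 CPM without. The control values of HAI2 and HAI3 averaged below 3 counts per library, and against that level their folds were 183 and 171. RD29B (AT5G52300), the gene whose promoter is widely used to report ABA signaling, had 258, 313 and 280.0 CPM with ABA, against 1.35, 1.89 and 1.43 CPM without (log2 fold change 7.51, standard error 0.32, adjusted p = 8.96e-10). In the wild type RD29B averaged 2544.7 CPM with ABA and 3.1 CPM without. Its response was smaller in OK100-oct by the test of the difference (-2.17 on the log2 scale, standard error 0.41, adjusted p = 0.00295).

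The remaining 2 of the 10 are neighbours on chromosome 5. BGLU24 (AT5G28510), a beta-glucosidase gene, lies on chromosome 5 from 10480757 to 10484073 on the minus strand of the TAIR10.1 assembly, and AT5G28520, a gene of the mannose-binding lectin superfamily, on chromosome 5 from 10492977 to 10495011 on the plus strand. BGLU24 had 45.3, 37.5 and 33.5 CPM in OK100-oct with ABA, against 0.0749, 0.288 and 0.0408 CPM without. AT5G28520 had 48.3, 40.04 and 35.4 CPM with ABA and 0.15, 0 and 0.327 CPM without. For both, replicate 1 was the highest and replicate 3 the lowest of the ABA libraries, and no control library came near them. The response of AT5G28520 was not shown to differ from the wild type (difference -0.67, standard error 0.95, adjusted p = 0.662), nor was that of BGLU24 (difference -1.57, standard error 0.77, adjusted p = 0.178). Among the rest of the 10, AT3G17520 and HAI2 were not shown to differ either. LEA7, AT3G02480, LEA4-5, HAI1, HAI3 and RD29B had a smaller response than in the wild type by this test (adjusted p between 0.00295 and 0.0496).

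**Figure D2:**
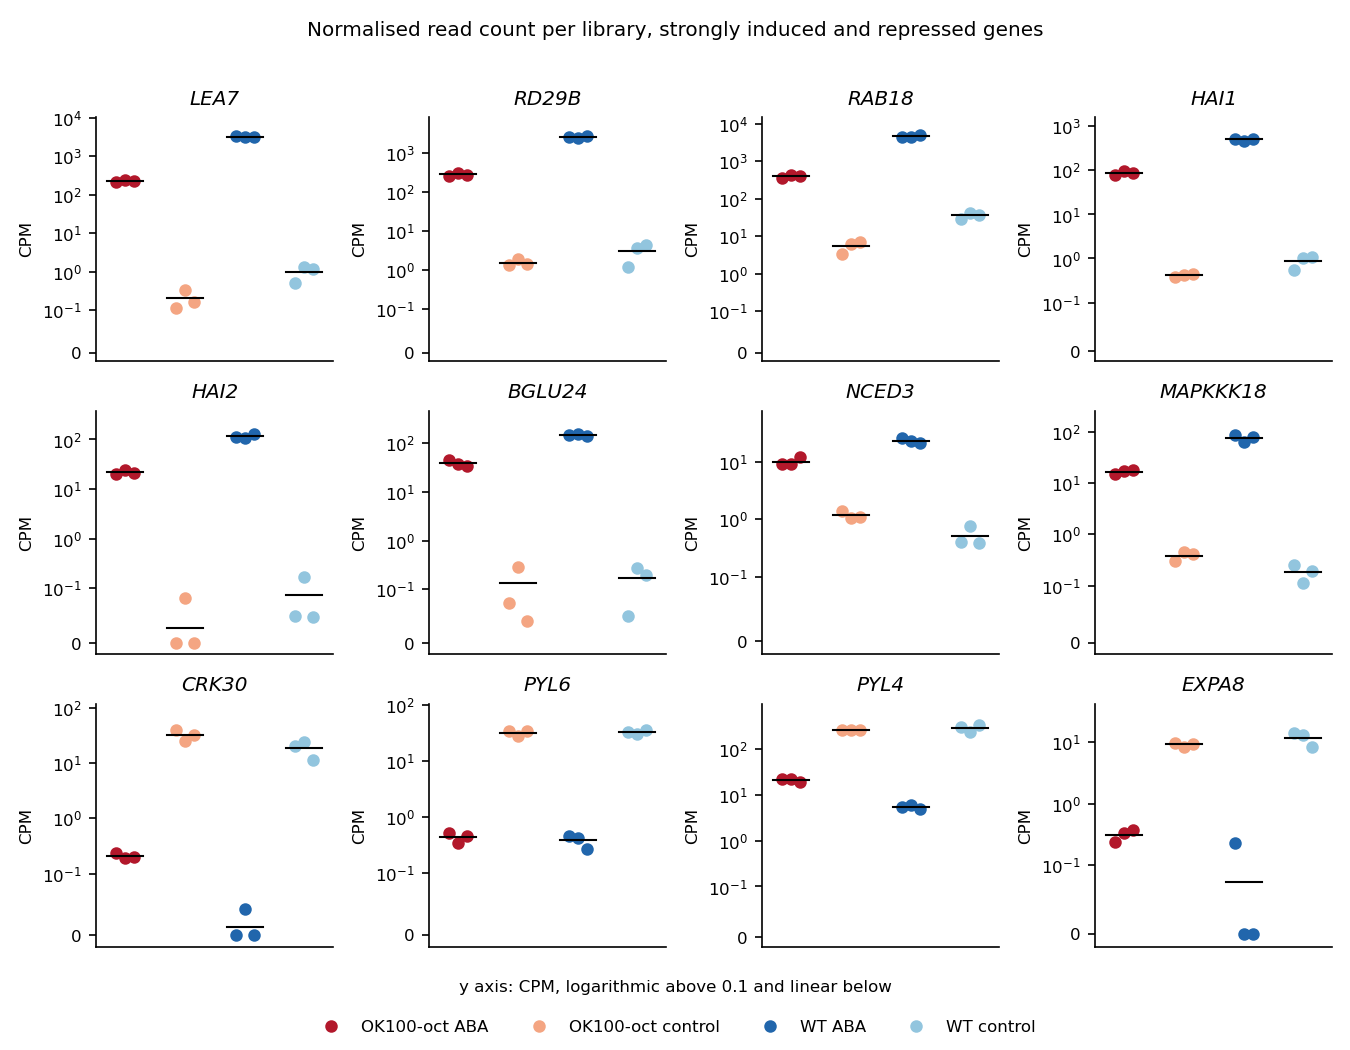
Normalised read counts (CPM, on an axis that is logarithmic above 0.1 and linear below) of 12 genes in each library, with OK100-oct ABA, OK100-oct control, wild type ABA and wild type control from left to right. Points are libraries and bars are means of 3; in every panel the 3 OK100-oct ABA points lie clear of the 3 OK100-oct control points.

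The ABRE is the DNA element that the ABFs and ABI5 bind, and its core was searched in the 250 bases before the annotated start of each gene in RefSeq (TAIR10.1). The core searched was ACGTG on either strand (CACGT on the other), and matches that overlap, as in the palindrome CACGTG, counted as 1. Of the 10 most strongly induced genes 8 had at least 1 core, and 7 had at least 2, while 4 of the 10 most strongly repressed genes had at least 1 and 1 of these had at least 2. The windows of 5 called genes are shown because they span that range, with LEA7, RD29B and HAI2 holding 4 cores each and HAI1 and PYL6 none. Each is written 5′ to 3′ on the strand of its gene, ends at the base before the gene start, and has the ABRE cores in capitals.
LEA7, chr1:19619474-19619723, plus strand: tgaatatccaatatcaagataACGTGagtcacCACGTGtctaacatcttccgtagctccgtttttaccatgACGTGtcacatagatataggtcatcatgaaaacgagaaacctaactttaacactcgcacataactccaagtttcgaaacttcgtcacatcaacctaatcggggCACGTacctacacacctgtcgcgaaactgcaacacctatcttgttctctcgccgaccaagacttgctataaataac
RD29B, chr5:21236771-21237020, plus strand: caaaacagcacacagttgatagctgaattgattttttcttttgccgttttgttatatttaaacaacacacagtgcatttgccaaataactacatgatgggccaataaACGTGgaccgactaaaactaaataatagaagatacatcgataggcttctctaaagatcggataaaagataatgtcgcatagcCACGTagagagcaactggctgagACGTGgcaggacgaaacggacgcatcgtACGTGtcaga
HAI2, chr1:2282829-2283078, minus strand: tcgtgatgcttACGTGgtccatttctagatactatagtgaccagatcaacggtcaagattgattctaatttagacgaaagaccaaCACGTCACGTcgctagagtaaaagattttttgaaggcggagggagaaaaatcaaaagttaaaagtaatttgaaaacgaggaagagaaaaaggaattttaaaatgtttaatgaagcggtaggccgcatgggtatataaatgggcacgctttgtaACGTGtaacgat
HAI1, chr5:23896940-23897189, minus strand: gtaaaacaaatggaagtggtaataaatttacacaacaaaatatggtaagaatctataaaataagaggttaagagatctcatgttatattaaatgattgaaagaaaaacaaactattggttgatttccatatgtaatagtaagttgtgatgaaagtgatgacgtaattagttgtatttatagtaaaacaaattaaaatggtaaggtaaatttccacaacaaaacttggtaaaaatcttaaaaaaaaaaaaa
PYL6, chr2:16846195-16846444, minus strand: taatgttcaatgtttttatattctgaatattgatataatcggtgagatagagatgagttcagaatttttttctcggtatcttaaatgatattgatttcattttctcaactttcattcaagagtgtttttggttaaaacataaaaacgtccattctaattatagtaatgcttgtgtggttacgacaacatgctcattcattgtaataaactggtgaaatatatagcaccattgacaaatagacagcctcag
HAI1 was induced 212-fold without a core in this window, and cores further upstream were not searched.

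Over all genes, an ABRE core was found in 341 of 732 promoters of genes induced in OK100-oct (46.6%), in 120 of 500 of repressed genes (24%) and in 4956 of 20507 of all tested genes (24.2%). Among all 37879 annotated genes with such a window the share was 20.8%. The genes induced at least 10-fold had a core in 64 of 111 promoters (57.7%) and at least 2 cores in 35 (31.5%), against 277 of 621 (44.6%) with at least 1 and 108 with at least 2 for those induced less. For genes that only the wild type induced, a core was found in 303 of 833 promoters (36.4%). A longer form, ACGTGGC or ACGTGTC, which contains the core, was found in 19.7% of promoters of genes induced in OK100-oct, 2.8% of repressed genes and 7.45% of all tested genes. The core was most frequent between 51 and 100 bases before the start, in 17.8% of promoters of induced genes, against 7.4% of repressed genes and 8% of all tested genes. The DRE core CCGAC, bound by DREB factors, was found in 15.8% of promoters of induced genes, 9.2% of repressed genes and 12.8% of all tested genes. The W-box core TTGAC, bound by WRKY factors, was found in 50.3%, 51.2% and 45.1% of these promoters in the same order. These shares are descriptions of the letters in this window.

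**Figure D3:**
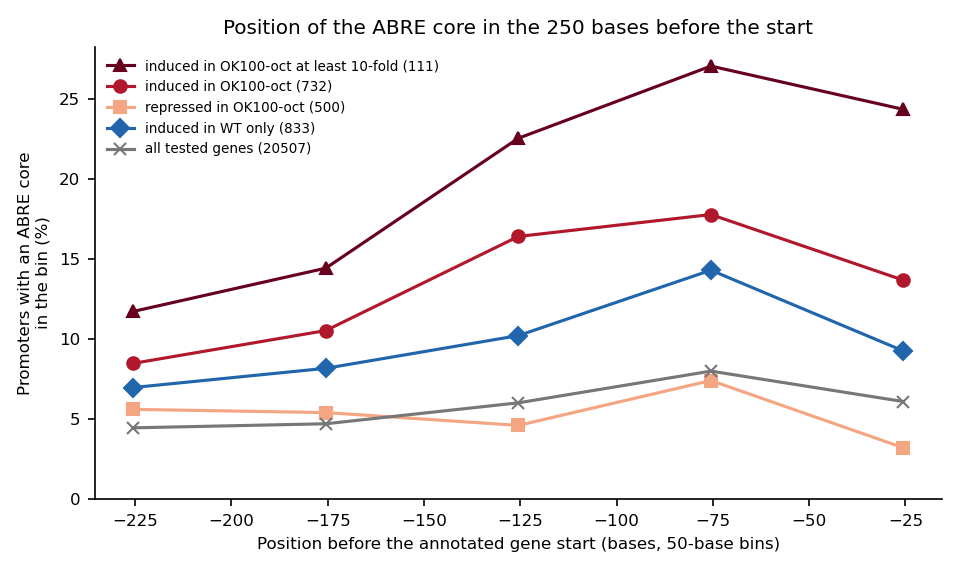
Percent of promoters with an ABRE core in each 50-base bin of the 250 bases before the annotated start, by group of genes, with the number of promoters in brackets. The lines of genes induced in OK100-oct lie above the grey line of all tested genes in every bin and peak between 51 and 100 bases before the start, at 17.8% for all induced genes and 27% for those induced at least 10-fold, while the line of repressed genes stays between 3.2% and 7.4%.

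Of 10 tested ABA receptor genes 6 were lower, 1 was higher and 3 did not pass by the adjusted p alone, and a further 4 were not tested. At 3-fold 4 were repressed (PYL6, PYL4, PYR1 and PYL5), against 2.43% of all tested genes, and none was induced, and the median log2 fold change was -1.03 in OK100-oct and -2.02 in the wild type. PYL6 had 0.523, 0.339 and 0.448 CPM in OK100-oct with ABA, against 34.3, 28.3 and 33.8 CPM without. Its 3 ABA values were all far below its 3 control values, 73.6-fold in the means (log2 fold change -6.18, standard error 0.17, adjusted p = 1.11e-11). The wild type had 0.381 ± 0.0995 CPM with ABA and 33 ± 2.42 CPM without (SD, n = 3), and the difference between the log2 fold changes, 0.21 (standard error 0.32), did not pass the test (adjusted p = 0.741). PYR1 had 14.9, 15.4 and 16.4 CPM with ABA and 77.9, 68.6 and 64.8 CPM without, and its response too was not shown to differ from the wild type (difference 0.06, standard error 0.17, adjusted p = 0.85). PYL4 had 22.4, 21.9 and 19.7 CPM with ABA, against 258, 262 and 265 CPM without. For PYL4 the log2 fold change of -3.62 in OK100-oct was smaller than the -5.74 in the wild type by the test of the difference (adjusted p = 1.06e-05). PYL7 went the other way, with 30.9, 27.5 and 29.3 CPM with ABA and 10.3, 13.9 and 13.8 CPM without, a log2 fold change of 1.21 (adjusted p = 1.15e-05) that was short of 3-fold. Whether the counting used strand is not stated in the sources used here, and as 47.8% of the 50-base windows of PYL7 exons overlap AT4G01030 on the other strand, its count is uncertain.

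Transcripts of the phosphatases, which the receptors hold back, were higher with ABA in OK100-oct. Of the 9 clade A PP2C genes 7 were induced at least 3-fold and none repressed, against 3.56% and 2.43% of all tested genes. Besides the 3 HAI genes these were PP2CA, ABI1, ABI2 (log2 fold change 3.73) and HAB1 (2.57). PP2CA had 147, 165 and 169 CPM with ABA, against 10.11, 11.6 and 10.9 CPM without, a 14.7-fold difference (log2 fold change 3.88, standard error 0.10, adjusted p = 1.00e-11). ABI1 had 279.8, 289 and 304 CPM with ABA and 41.6, 46.3 and 44.1 CPM without. HAB2 passed the test below 3-fold (log2 fold change 1.199), and AHG1, which acts mainly in seeds, did not pass it (log2 fold change 0.84, adjusted p = 0.578). The response was smaller than in the wild type by the test of the difference in 7 of the 9 genes, and was not shown to differ in HAI2 and AHG1. The median log2 fold change was 3.73 in OK100-oct and 4.88 in the wild type.

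The SnRK2 kinases changed little. None of the 10 genes passed 3-fold in OK100-oct, 8 were higher and 1 lower with an adjusted p below 0.05, against 25.9% and 26.1% of all tested genes. SnRK2.6 (OST1), the kinase of stomatal closure, had 52.5, 55.7 and 52.7 CPM with ABA, against 26.6, 31.7 and 27.2 CPM without, 1.88-fold higher (adjusted p = 2.86e-06). SnRK2.2 had 141, 128 and 138 CPM with ABA and 123, 128 and 122 CPM without, and its difference did not pass the test (log2 fold change 0.12, adjusted p = 0.205). SnRK2.9 had 33.9, 33.6 and 28.7 CPM with ABA, against 11.7, 17.57 and 14.5 CPM without (log2 fold change 1.14). With library totals alone 6 of the 10 were higher and 1 lower.

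Of the 8 tested group A bZIP genes, ABF3 and ABI5 were induced at least 3-fold and none was repressed, against 3.56% and 2.43% of all tested genes. ABF3 had 212, 225 and 233 CPM with ABA, against 31.9, 37.6 and 36.3 CPM without (log2 fold change 2.66, standard error 0.11, adjusted p = 7.88e-10). ABI5, best known from seed germination, had 13.2, 10.9 and 13.9 CPM with ABA and 3.14, 3.5 and 3.39 CPM without. ABF2 (2.75-fold) and ABF4 (2.38-fold) were higher but short of 3-fold, and ABF1 passed the test as well (log2 fold change 0.79). A share of 27.2% of the exon windows of ABF4 overlaps AT3G03815 on the other strand. The AFP genes encode proteins that bind ABI5 and act against it, and all 4 were higher with ABA, 2 of them at least 3-fold. Among all tested genes 25.9% were higher by the adjusted p alone and 3.56% were induced. AFP1 had 84.8, 85.4 and 84.7 CPM with ABA, against 3.07, 3.74 and 3.84 CPM without, 23.9-fold higher (log2 fold change 4.58, standard error 0.14, adjusted p = 3.30e-11). AFP3 had 138, 137 and 138 CPM with ABA and 10.2, 13.5 and 12.4 CPM without. The replicates of both genes lay very close together with ABA.

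MAPKKK18 and MAPKKK17, at the head of a MAP kinase cascade that ABA switches on through new synthesis of these kinases, were the induced members of a list of 7. The induced share of all tested genes was 3.56%. MAPKKK18 had 15, 17.2 and 17.7 CPM in OK100-oct with ABA, against 0.3, 0.453 and 0.408 CPM without, 43.1-fold higher (log2 fold change 5.42, standard error 0.19, adjusted p = 1.71e-10). In the wild type the change was 409.6-fold, and the difference of -3.20 on the log2 scale passed the test (adjusted p = 0.000297). MAPKKK17 had 20.13, 15.4 and 18.1 CPM with ABA and 2.1, 2.59 and 2.29 CPM without. Further down the cascade, MKK3 (0.43 on the log2 scale) and MPK7 (1.19) passed the test below 3-fold.

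**Figure D4:**
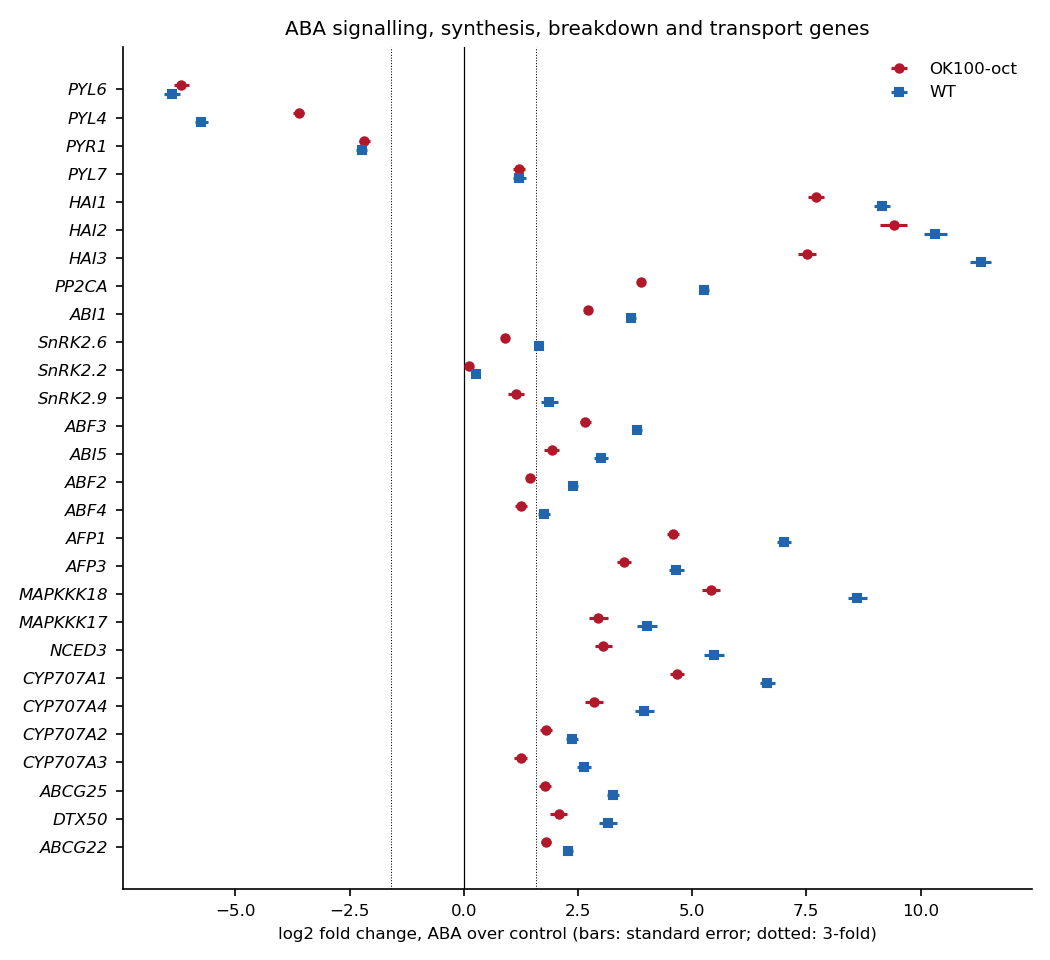
Log2 fold change with ABA of 28 genes of ABA signaling, synthesis, breakdown and transport in OK100-oct (red circles) and the wild type (blue squares), with standard errors as bars and 3-fold as dotted lines. The receptors PYL6 and PYR1 coincide in both genotypes, while for most induced genes the red point lies nearer to 0 than the blue one.

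Some genes for making, breaking down and moving ABA also responded. NCED3, which encodes the rate-limiting dioxygenase of ABA synthesis, was the only synthesis gene of 7 tested that was called, where 3.56% of all tested genes were induced. NCED3 had 8.99, 9.2 and 11.9 CPM with ABA, against 1.42, 1.07 and 1.1 CPM without, 8.37-fold higher (log2 fold change 3.06, standard error 0.19, adjusted p = 4.76e-08), and 44.4-fold higher in the wild type. AAO3, the last enzyme of the pathway, had 95.5, 98.7 and 101 CPM with ABA and 36.8, 50.9 and 48.6 CPM without, a change of 2.17-fold that passed the test (adjusted p = 1.39e-05), with 12.2% of its exon windows overlapping AT2G27160 on the other strand. ABA1, an early enzyme of the pathway, was 1.85-fold higher (adjusted p = 5.92e-05). NCED9 averaged 0.118 CPM with ABA and 0.134 CPM without in OK100-oct (adjusted p = 0.884), against 0.906 CPM with ABA and 0.0185 CPM without in the wild type, and this difference between the genotypes passed the test (adjusted p = 0.00367).

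The CYP707A genes encode the hydroxylases that break ABA down, and all 4 were higher with ABA. Among 7 tested genes of ABA breakdown and conjugation, the other 3 did not pass by the adjusted p. The share of higher genes among all tested genes was 25.9%. CYP707A1 had 86.9, 103 and 73.7 CPM with ABA, against 3.56, 3.09 and 3.76 CPM without, 25.4-fold higher (log2 fold change 4.66, standard error 0.15, adjusted p = 8.62e-11). CYP707A4 had 28.2, 31.7 and 20.15 CPM with ABA and 4.01, 3.04 and 3.96 CPM without. CYP707A2 was 3.49-fold higher, while CYP707A3 was 2.38-fold higher and so short of the call. Of 5 transport genes 3 were induced, against 3.56% of all tested genes. DTX50, an ABA exporter, had 28, 27.4 and 28.7 CPM with ABA, against 5.32, 7.94 and 6.66 CPM without. ABCG25, an exporter of ABA from its sites of synthesis, had 30.2, 34.6 and 30.1 CPM with ABA and 9.96, 8.81 and 8.82 CPM without. ABCG22 was 3.5-fold higher (adjusted p = 4.01e-08).

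Transcription factor genes of several other families responded. Of 10 stress NAC genes 7 were induced at least 3-fold and none repressed, against 3.56% and 2.43% of all tested genes. The wild type had the same 2 counts. NAC019 had 24, 31.9 and 25.4 CPM with ABA, against 1.01, 1.77 and 0.49 CPM without (log2 fold change 4.63, standard error 0.31, adjusted p = 8.53e-08). RD26, a NAC gene of drought, had 248, 276 and 259.8 CPM with ABA and 30.4, 45.5 and 44.2 CPM without. NAC6 (ORE1), which promotes leaf senescence, had 64.6, 59.5 and 59.1 CPM with ABA and 5.47, 9.34 and 6.45 CPM without, and its response was not shown to differ from the wild type (adjusted p = 0.169). NAC032 was 6.34-fold higher.

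Of 11 tested HD-ZIP class I genes, HB-7, HB-12 and HB40 were induced, against 3.56% of all tested genes. HB-7 had 246, 258 and 261 CPM with ABA, against 7.45, 7.32 and 7.88 CPM without, 33.8-fold higher (log2 fold change 5.08, standard error 0.12, adjusted p = 1.00e-11). HB-12, its closest relative, had 99.9, 89.3 and 109 CPM with ABA and 7.34, 8.06 and 6.45 CPM without. HB6 was 2.1-fold higher. HB40 was called in OK100-oct (log2 fold change 2.26) and not in the wild type (1.44), but the difference itself did not pass the test (adjusted p = 0.199). HB5, HB13, HB20 and HB23 were lower with an adjusted p below 0.05, the lowest log2 fold change being that of HB20 (-0.95). HB53 was higher but short of 3-fold (1.42).

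Of 10 MYB genes linked to ABA, 5 were induced (MYB41, MYB102, MYB2, MYB74 and MYB96), against 3.56% of all tested genes. MYB41, which promotes suberin synthesis, had 7.19, 5.91 and 3.99 CPM in OK100-oct with ABA, against 0.112, 0.0823 and 0.123 CPM without. Its control values averaged below 3 counts per library, against which it was 47.7-fold higher, and the log2 fold change of 5.67 was not shown to differ from the 4.88 in the wild type (adjusted p = 0.39). MYB102 had 5.47, 5.47 and 5.41 CPM with ABA and 0.0749, 0.288 and 0.245 CPM without. MYB96, a regulator of wax synthesis, had 77, 78.1 and 77.6 CPM with ABA and 16.2, 20.6 and 17.2 CPM without. MYB60, a guard cell factor that promotes stomatal opening, was lower, with 8.23 ± 0.491 CPM with ABA and 17.8 ± 0.781 CPM without (SD, n = 3), 2.16-fold in the means (adjusted p = 1.25e-06).

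The classical targets of the pathway were induced in large part, where 3.56% of all tested genes were induced at least 3-fold. Of 21 tested LEA genes other than dehydrins 18 were induced at least 3-fold and none repressed, of 9 dehydrin genes 7 were induced, and of 11 RD, KIN, COR413 and LTP genes 10 were induced. Their median log2 fold changes were 3.88, 2.32 and 4.11 in OK100-oct, and 6.22, 3.48 and 5.78 in the wild type in the same order. With members at 0 in a whole group set to their bound, the medians of the first and second list became 3.44 and 2.204 in OK100-oct, with no change in the wild type. The wild type also induced 18 of the LEA genes and 7 of the dehydrins. RAB18, a dehydrin that strongly marks ABA responses, had 361, 435 and 410.4 CPM with ABA, against 3.44, 6.38 and 6.82 CPM without (log2 fold change 6.18, standard error 0.24, adjusted p = 4.04e-10). In the wild type it reached 4565 ± 272 CPM with ABA, against 36.3 ± 6.76 CPM without (SD, n = 3). The difference of the 2 log2 fold changes, -0.79 (standard error 0.28), did not pass the test (adjusted p = 0.0688). The level of RAB18 was thus lower in OK100-oct both with and without ABA. LTI30 had 767, 845 and 775 CPM with ABA and 74.5, 96.2 and 81.9 CPM without. ERD10 had 769, 784 and 841 CPM with ABA and 115, 108 and 114 CPM without. GEA6 (Em6), a seed LEA gene, had 0.523, 0.581 and 0.529 CPM with ABA and no count in any untreated OK100-oct library, so that it was at least 4.56-fold higher against 3 counts per library, where the wild type with ABA had 26.4 ± 2.3 CPM.

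RD29A had 1329, 1695 and 1523 CPM in OK100-oct with ABA, against 92.1, 81.6 and 80.6 CPM without, 17.9-fold higher (log2 fold change 4.16, standard error 0.27, adjusted p = 7.17e-08). RD20, a caleosin of lipid droplets, had 42.4, 48 and 41.6 CPM with ABA and 0.449, 1.03 and 1.02 CPM without. Its response was 52.8-fold in OK100-oct and 427-fold in the wild type, a difference of -2.99 on the log2 scale (adjusted p = 9.03e-05). KIN2 was 12.4-fold higher. Of 7 tested oil body genes LDAP2, LDAP1 and OLEO1 were induced, against 3.56% of all tested genes, and a further 5 were not tested. LDAP2, a lipid droplet protein, had 4.14, 4.5 and 3.38 CPM with ABA and 0.187, 0.0823 and 0.286 CPM without. LDAP1 was 3.47-fold higher.

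Genes for protective sugars, proline and barrier lipids were partly induced. P5CS1, the main enzyme of stress-induced proline synthesis, had 242, 249.5 and 255 CPM with ABA, against 24.4, 24.7 and 29 CPM without, 9.56-fold higher (log2 fold change 3.26, standard error 0.12, adjusted p = 2.10e-10). ERD5, a proline dehydrogenase that breaks proline down, was higher as well, with 4858, 3600.0 and 3972 CPM with ABA and 1268, 2131 and 1729 CPM without. GolS4 and GolS2 encode galactinol synthases of the raffinose pathway. GolS4 had 18.7, 18.3 and 15.3 CPM with ABA, against 1.12, 1.07 and 1.72 CPM without. GolS2 was 14.7-fold higher, whereas STS was repressed (log2 fold change -3.41). OK100-oct induced 6 of 18 suberin and wax genes and repressed 1 (CER4), against 13 and 1 in the wild type. Of the 18, 12 differed between the genotypes, all with the smaller response in OK100-oct. Among all tested genes OK100-oct induced 3.56% and repressed 2.43%. KCS2, a fatty acid elongase, had 58.8, 63.3 and 59.4 CPM with ABA and 5.05, 3.74 and 5.31 CPM without, although 59.6% of its exon windows overlap AT1G04247 on the other strand. ABCG6, a transporter needed for suberin, had 26.6, 21.8 and 26.2 CPM with ABA and 2.7, 1.81 and 2.33 CPM without. GPAT5, a suberin acyltransferase, was 4.83-fold higher. The part of the lower summed root markers given above in these values was not tested. CER1, for wax alkanes, was 2.81-fold higher in OK100-oct and 12-fold in the wild type (adjusted p of the difference = 0.000665).

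Of the heat shock genes few responded. HSFA6A and HSFA6B, heat shock factor genes that ABA induces, had 12.9, 16 and 12.6 CPM and 84.2, 77.6 and 73.1 CPM with ABA, against 0.112, 0.0823 and 0.0817 CPM and 2.13, 2.26 and 1.67 CPM without. Of the 11 tested genes for heat shock factors, small heat shock proteins and HSP101, these 2 and HSP22.0 were induced and no other member passed the test. The induced share of all tested genes was 3.56%. HSP22.0 averaged 0.672 CPM with ABA and had no count in the untreated libraries. HSP101, a chaperone of heat acclimation, had 11.5, 15.3 and 11.6 CPM with ABA and 15, 16.7 and 12.6 CPM without, which overlap.

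By the gain in CPM per kilobase of exon, the 5 largest rises were those of AT4G35770, ASN1, XTH24, COR47 and SIP2. ASN1, an asparagine synthetase that low sugar induces, was at 1736 CPM per kilobase with ABA, against 345 without, and AT4G35770, a rhodanese-like gene, was at 2759 against 659.6. XTH24, of the xyloglucan transferases of the cell wall, was at 1622 with ABA and 514 without, COR47, a dehydrin, at 1338 and 290.4, and SIP2, a raffinose-splitting galactosidase, at 1243 and 373 CPM per kilobase. The control values of ASN1 were spread, with 539, 1277 and 1029.9 CPM against 5460.5, 3779.5 and 5061 CPM with ABA, and its log2 fold change was 2.33 (standard error 0.38). For ASN1, AT4G35770, XTH24 and SIP2 replicate 2 was the highest of the untreated libraries and the lowest of the ABA libraries, with no overlap between the groups. None of these 4 was shown to differ from the wild type in its response (adjusted p between 0.371 and 0.743), whereas COR47 rose less (4.61-fold, against 11.1-fold in the wild type, adjusted p of the difference = 0.000444).

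The strongest fall in OK100-oct was that of CRK30 (AT4G11460), a cysteine-rich receptor kinase gene. CRK30 had 0.238, 0.194 and 0.203 CPM with ABA, against 39.6, 24.9 and 32.5 CPM without, 153-fold lower (log2 fold change -7.22, standard error 0.38, adjusted p = 9.07e-09). After PYL6 came AT3G61400, an oxygenase gene, which had no count in any ABA library of OK100-oct and 7.6, 3.58 and 7.92 CPM without ABA, so that it was at least 46.6-fold lower. The peroxidase gene AT5G19890 had 0.0476, 0.0484 and 0.285 CPM with ABA and 6.33, 9.18 and 3.27 CPM without. CYP735A2, which makes the cytokinin trans-zeatin, had 0.143, 0.0484 and 0.57 CPM with ABA, against 8.42, 4.24 and 7.23 CPM without (log2 fold change -4.60, standard error 0.48, adjusted p = 6.57e-06). The other 5 of the 10 were AT5G28630 (glycine-rich protein), AT3G27950 (GDSL lipase), EXPA8, AT1G26250 (extensin-like) and AT2G43140 (bHLH factor), whose folds were between 25.6 and 31.5, that of AT3G27950 being against 3 counts per library. AT2G43140 had 1.14, 0.968 and 1.06 CPM with ABA and 27.4, 28.5 and 25.1 CPM without, with close replicates in both groups.

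Several genes of the cell wall fell. AT1G26250 had 8.14, 6.2 and 5.58 CPM with ABA, against 189, 141 and 181 CPM without, but 85.1% of its exon windows overlap AT1G26255 on the other strand. It was also, with AT5G26280, PYL4, PME3 and PMEPCRA, one of the 5 genes with the largest fall in CPM per kilobase. PME3, a pectin methylesterase, fell to 102, 106 and 104 CPM with ABA, against 355, 295 and 372 CPM without, and PMEPCRA, of the same family, to 55.5, 53.6 and 54.8 CPM, against 213, 231 and 269 CPM. AT5G26280, a TRAF-like gene, had 179, 167 and 151 CPM with ABA and 736, 658 and 734 CPM without. Of 25 expansin and XTH genes, which loosen and remodel walls in growing cells, 7 were repressed (EXPA1, EXPA3, EXPA5, EXPA8, EXPA15, XTH20 and XTH33) and 2 induced (XTH24 and XTH25), against 2.43% and 3.56% of all tested genes. EXPA8 had 0.238, 0.339 and 0.366 CPM with ABA, against 9.66, 8.35 and 9.35 CPM without (log2 fold change -4.82, standard error 0.36, adjusted p = 2.83e-07). EXPA1 had 10.14, 14.3 and 17.3 CPM with ABA and 141, 125 and 132 CPM without. XTH25 went the other way, with 22.8, 19.5 and 18.3 CPM with ABA and 1.91, 3.62 and 3.27 CPM without.

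Glucosinolates are sulfur-rich defence compounds of the cabbage family, and 6 of 19 genes of their synthesis were repressed in OK100-oct, against 13 in the wild type. Among all tested genes 2.43% were repressed in OK100-oct and 7.16% in the wild type. The 6 were MAM3, CYP79F2, MYB28, BCAT4, CYP83A1 and BAT5, all of the aliphatic branch. MAM3, which elongates the methionine side chain, had 6.57, 6.58 and 6.84 CPM with ABA, against 115, 84.9 and 109 CPM without, 15.4-fold lower (log2 fold change -3.94, standard error 0.15, adjusted p = 3.95e-10). CYP79F2 had 5.23, 7.5 and 7.45 CPM with ABA and 47.7, 28.9 and 38.3 CPM without. MYB28, the main activator of the aliphatic branch, had 13.1, 14 and 18.15 CPM with ABA and 61.2, 41.9 and 49.2 CPM without. CYP83B1, of the indole branch, was 1.87-fold lower (adjusted p = 7.60e-05). The median log2 fold change of the 19 genes was -0.90 in OK100-oct and -2.47 in the wild type.

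Most tested defence genes of the salicylate pathway were lower with ABA. Of 10 tested genes 3 were repressed (WRKY54, WRKY18 and WRKY46), against 2.43% of all tested genes. With an adjusted p below 0.05, 8 were lower and none was higher, against 26.1% and 25.9% of all tested genes. A further 4 had too few counts to be tested. These were PR1, BGL2, WRKY38 and NIMIN1, with at most 2, 4, 9 and 9 counts in any OK100-oct library. WRKY54 had 0.476, 1.11 and 0.611 CPM with ABA, against 4.94, 4.07 and 2.61 CPM without. WRKY18 had 8.47, 10.12 and 8.87 CPM with ABA and 33, 42.1 and 29.8 CPM without, and its log2 fold change of -1.93 was not shown to differ from the -1.72 in the wild type (adjusted p = 0.492). PR5, a late marker of this pathway, had 3.05, 5.03 and 3.99 CPM with ABA and 9.73, 7.9 and 11.7 CPM without, a fall that was smaller than in the wild type (log2 fold change -1.28, against -3.57, adjusted p of the difference = 0.000868). Of 8 tested receptor kinase genes of the CRK family only CRK30 was called, where 2.43% of all tested genes were repressed. CRK13 was 2.02-fold lower (adjusted p = 0.015), but no longer passed without ABA replicate 1 (log2 fold change -0.83), ABA replicate 3 (-0.87) or control replicate 2 (-0.72). Of the 11 JAZ genes, repressors of jasmonate signaling, 5 were higher, 1 was lower and 5 did not pass by the adjusted p alone. Of all tested genes 25.9% were higher and 26.1% lower. At 3-fold only JAZ4 was repressed and none was induced, against 2.43% and 3.56% of all tested genes. JAZ4 had 2.43, 2.86 and 1.95 CPM with ABA and 16.7, 13.3 and 13.4 CPM without. JAZ7 was 2.75-fold higher (adjusted p = 0.00568).

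Of genes for cell division and for auxin and cytokinin signaling, none was called. None of 21 cell division genes passed 3-fold, 14 were lower with an adjusted p below 0.05 and none was higher, against 26.1% and 25.9% of all tested genes, with a median log2 fold change of -0.58, against -1.20 in the wild type. PCNA1, of the replication clamp, had 7.52, 9.59 and 8.14 CPM with ABA, against 22.7, 17.1 and 18.6 CPM without. CYCB1;1, a mitotic cyclin, had 7.76, 9.1 and 7.73 CPM with ABA and 12.7, 11.1 and 12.6 CPM without, and its fall (adjusted p = 0.0146) no longer passed without ABA replicate 1 (log2 fold change -0.53) or ABA replicate 3 (-0.52). Of 17 tested auxin genes 7 were lower, 1 was higher and 9 did not pass by the adjusted p alone, against the same background of 26.1% lower and 25.9% higher. LAX3 and AUX1, both auxin influx carriers, had 9.47, 8.86 and 10.2 CPM and 40.1, 37.1 and 41.2 CPM with ABA, against 30.5, 22.2 and 23.2 CPM and 74.1, 74.1 and 77 CPM without. Of 9 tested type-A ARR genes, which respond to cytokinin, ARR3, ARR5, ARR6, ARR7 and ARR8 were lower and ARR9 higher by the adjusted p alone, and the other 3 did not pass. ARR7 had 5.04, 4.79 and 4.19 CPM with ABA and 14, 7.98 and 8.98 CPM without, while ARR9 was 1.49-fold higher (adjusted p = 0.00187), with 8.81% of its exon windows overlapping AT3G08825 on the other strand.

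Chlorophyll breakdown was a group that the wild type called and OK100-oct did not. None of its 7 genes passed 3-fold in OK100-oct and 4 did in the wild type, although 6 were higher in OK100-oct by the adjusted p alone. Among all tested genes 25.9% were higher in OK100-oct by the adjusted p alone, and the wild type induced 7.18%. NYE1, which removes magnesium from chlorophyll, had 27.6, 28 and 28.1 CPM in OK100-oct with ABA, against 7.97, 12.3 and 10.2 CPM without. NYE2, its close relative, had 1.76, 1.55 and 2.12 CPM with ABA and 0.562, 0.946 and 0.653 CPM without, where the wild type reached 18.19 ± 4.28 CPM with ABA, against 0.94 ± 0.129 CPM without (SD, n = 3). PAO, a later enzyme of the pathway, was 2.1-fold higher in OK100-oct and 6.1-fold in the wild type. The smaller response passed the test of the difference in 4 of the 7 genes, NYE1, NYE2, PPH and PAO. Of 43 nuclear genes for the photosystems, antenna and Rubisco none was called in OK100-oct, and the median log2 fold change was 0.06. Of these 9 were higher and 6 lower by the adjusted p alone, which became 3 and 13 with library totals alone, so no direction is given. Of 8 starch breakdown genes none was called. BAM1, a beta-amylase of stressed leaves, was 2.74-fold higher in OK100-oct and 9.81-fold in the wild type (adjusted p of the difference = 6.65e-05), and BAM3, the main beta-amylase of the night, was 1.37-fold lower (adjusted p = 0.00053), with 24.6% of its exon windows overlapping AT4G06665 on the other strand, so its count is uncertain.

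Ion and water channels showed few calls. GORK, the outward potassium channel of guard cells, was the only induced gene of 8 guard cell channels and pumps, where 3.56% of all tested genes were induced. GORK had 21.9, 21 and 24.2 CPM with ABA, against 5.47, 5.35 and 3.68 CPM without (log2 fold change 2.21, standard error 0.13, adjusted p = 2.33e-08). KAT2, an inward potassium channel, was 1.71-fold lower (adjusted p = 0.00704). Of 6 guard cell markers only MYB60 fell and none rose, their summed level being between 45.4 and 50.5 CPM with ABA and between 55.6 and 56.1 CPM without, and its part in these values was not tested. Of 18 aquaporin genes only TIP2;3 was called, but 12 were higher and 2 lower by the adjusted p alone, against 25.9% and 26.1% of all tested genes. The median log2 fold change of the 18 was 0.73 in OK100-oct and 0.56 in the wild type. TIP2;3, of the vacuole membrane, had 38, 33.2 and 47.4 CPM with ABA and 11.3, 15.5 and 10.09 CPM without. PIP1C and PIP1B, of the plasma membrane, were 2.2-fold and 1.86-fold higher. With library totals alone 10 of the 18 were higher and 3 lower, and TIP2;3 was no longer at 3-fold. Of 9 tested nitrate genes none was called. By the adjusted p alone 2 of the 9 were higher, none was lower and 7 did not pass, against 25.9% higher and 26.1% lower of all tested genes. Their median log2 fold change was -0.05. NIA1 and NIA2, the nitrate reductases, had 1740.5, 1742 and 1741 CPM and 3287, 2934 and 3028 CPM with ABA, against 765, 952 and 882 CPM and 1592, 2149.9 and 1969 CPM without.

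**Figure D5:**
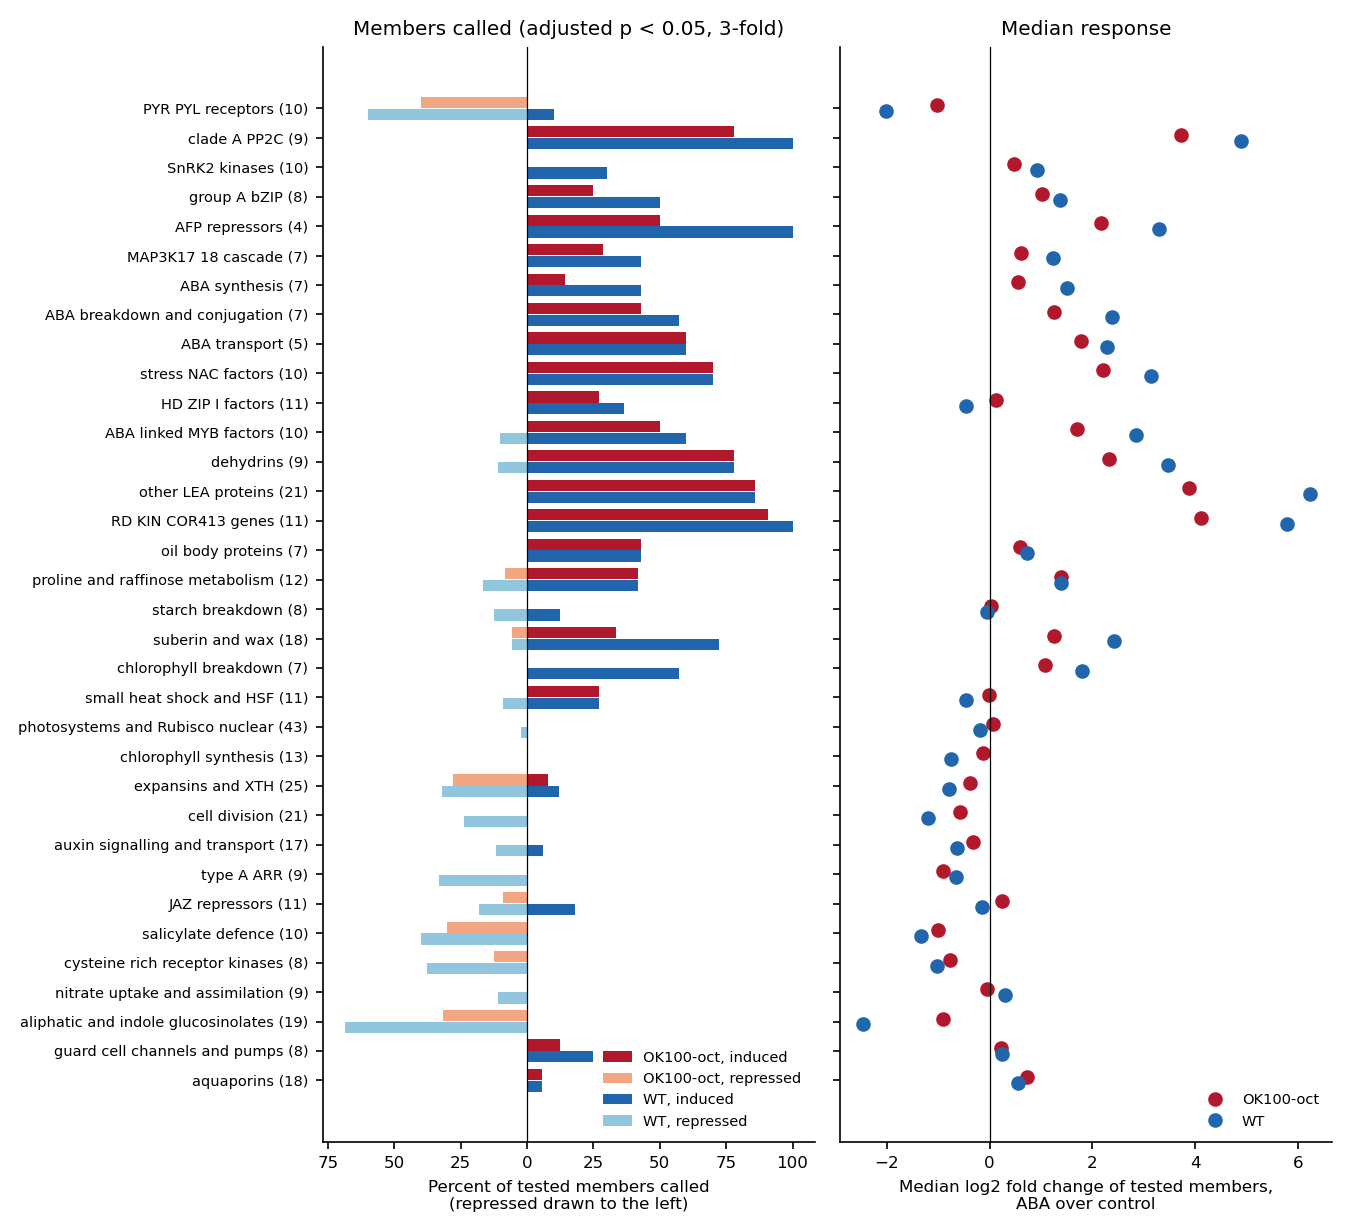
Left, percent of tested members of each gene list called as induced (to the right) or repressed (to the left) by ABA, with OK100-oct above the wild type in each pair and the number of tested members in brackets. Right, median log2 fold change of the tested members; the red points of OK100-oct lie nearer to 0 than the blue points of the wild type for most lists, among them the LEA proteins (3.88, against 6.22) and the glucosinolate genes (-0.90, against -2.47).

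Some genes responded more strongly in OK100-oct. Of the called genes 20 had a larger change in the direction of the call by the test of the difference, 14 of 733 induced and 6 of 500 repressed. Among all 20617 tested genes 267 had one when only an adjusted p below 0.05 was required in OK100-oct. The count of 20 became 40 without OK100-oct control replicate 2. In 4 of the 20 the wild type estimate had the opposite sign, and in 2 of these, AT2G36690 and AT2G28270, it passed the test itself. AT2G36690, an oxygenase gene, had 32.2, 45.4 and 23.4 CPM in OK100-oct with ABA, against 10.2, 13 and 7.31 CPM without, while the wild type had 5.42, 6.53 and 5.73 CPM with ABA and 10.5, 10.2 and 17.7 CPM without. It thus rose in OK100-oct and fell in the wild type (difference 2.84 on the log2 scale, standard error 0.39, adjusted p = 0.000294). PSK1, the precursor of the growth peptide phytosulfokine, had 6.19, 8.28 and 7.86 CPM with ABA and 2.47, 2.88 and 1.67 CPM without in OK100-oct, against 3.78, 4.27 and 3.8 CPM with ABA and 3.71, 3.5 and 5.38 CPM without in the wild type. AT3G53980, of the lipid-transfer superfamily, was 12.4-fold higher with ABA in OK100-oct, with 46.1 ± 3.83 CPM against 3.71 ± 1.32 CPM, and 4.6-fold higher in the wild type, with 147 ± 19.8 CPM against 32 ± 5.35 CPM (SD, n = 3). Its level with ABA was therefore lower in OK100-oct and its untreated level lower still. AT2G05510, a glycine-rich protein gene, had the same arrangement, with 32.1 ± 6.67 CPM with ABA and 7.01 ± 1.15 CPM without in OK100-oct, against 109.7 ± 8.28 CPM with ABA and 48.8 ± 3.26 CPM without in the wild type. AT1G18980, a cupin gene, was 4.06-fold higher in OK100-oct and 1.61-fold in the wild type, with 53.7% of its exon windows overlapping AT1G18975 on the other strand.

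Among the genes that fell more in OK100-oct, AT5G60760, a nucleoside triphosphate hydrolase gene, had 3.9, 3.92 and 2.85 CPM with ABA, against 21.2, 17.5 and 20.3 CPM without. In the wild type it had 13.2, 10.4 and 12.2 CPM with ABA and 10.3, 16.6 and 11.6 CPM without, which overlap (difference -2.37, standard error 0.25, adjusted p = 5.49e-05). LAC8, a laccase gene, had 15.4, 11.8 and 13.1 CPM with ABA and 78, 67.9 and 68.8 CPM without in OK100-oct, a fall of 5.33-fold, against 2.89-fold in the wild type. CYP71B22 had 1.1 ± 0.231 CPM with ABA and 4.7 ± 0.34 CPM without in OK100-oct (SD, n = 3), against 1.37 ± 0.386 CPM and 1.52 ± 0.677 CPM in the wild type, so that its untreated level stood apart in the mutant. EXPA17, an expansin of roots, and EXO70H4, an exocyst subunit, both with under 4 CPM in every library, differed by -2.05 and -1.75 on the log2 scale (adjusted p = 0.0188 and 0.0253).

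At the other end were genes that the wild type called and that did not pass the test in OK100-oct. AT1G49570, a peroxidase gene, had 1.67, 2.18 and 2.56 CPM with ABA and 0.636, 2.18 and 1.59 CPM without in OK100-oct, against 0.0911, 0.168 and 0.107 CPM with ABA and 2.2, 3.34 and 4.18 CPM without in the wild type, and the difference of 5.20 on the log2 scale passed the test (adjusted p = 0.000205). AT3G55646 and AT1G79770 also fell only in the wild type, at low counts, with log2 fold changes of 0.01 and -0.11 in OK100-oct and -5.28 and -4.57 in the wild type (adjusted p of the difference = 4.60e-05 and 0.000805). Of genes induced only in the wild type, AT3G55870, an ADC synthase gene, had 0.0476, 0.0968 and 0 CPM with ABA in OK100-oct and 1.05, 1.17 and 1.29 CPM with ABA in the wild type, where it had no count without ABA. AT5G35660, a glycine-rich protein gene, had no count in any OK100-oct library and 1.18, 2.05 and 1.23 CPM in the wild type with ABA. The test of the difference did not pass for either gene (adjusted p = 0.122 and 1), and both have groups with no counts. SAE1B, a SUMO-activating enzyme gene, had 0.428, 0.581 and 0.326 CPM with ABA and 3.41, 0.453 and 8 CPM without in OK100-oct, against 22.7, 1.09 and 1.34 CPM with ABA and 0.401, 0.612 and 0.288 CPM without in the wild type. These values varied widely within groups, and 95.7% of its exon windows are shared with its near-identical copy AT5G50680, so its count is uncertain.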

How the data were processed

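Reads of 12 libraries (2 genotypes, with and without ABA, 3 each) were counted per gene by the authors before deposit. The deposited table holds raw counts for 33602 genes, and the submitters' processing notes name Trimmomatic 0.36, HISAT2 2.1.0, HTSeq 0.9.1 and the TAIR10 build. The labels and the study's methods name different RNA and library kits. The counts were tested with edgeR 4.0.16 (R 4.3.3) by the quasi-likelihood test after TMM normalization, in 1 fit over all 4 groups, on the 20617 genes kept by filterByExpr. The difference between genotypes was an interaction contrast, and p values were adjusted with the Benjamini-Hochberg method. A gene was called at an adjusted p below 0.05 and a change of at least 3-fold. Where a group averaged below 3 counts per library, folds were taken against that level. The biological coefficient of variation was 11.9%. Library totals were lower in the untreated wild type (16632701 to 19945936) than in the other groups (20981219 to 26661613), and a count of 3 per library set the floor for counting error only. In simulated counts for this comparison (20393 genes), 99 of 100 genes changed 4-fold and 81 of 98 changed 2-fold were recovered, with 3.74% false calls. Only these genes changed in the simulation, and recovery was by the adjusted p alone. The figures therefore do not describe the 3-fold calls, nor data in which many genes change.

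Genes named were, for each direction, the 10 with the largest fold and the 5 with the largest change per kilobase, up to 5 with a larger response in OK100-oct, 3 called only in the wild type, and up to 4 of each gene list. AT2G28270 and list members given with a log2 fold change alone were added after their values were seen. The members and lists were chosen with earlier results of these data known. Promoters and exon overlaps were taken from RefSeq (TAIR10.1), with figures drawn in matplotlib 3.10.9 under Python 3.11.15. Alternatives were other scalings, filters, thresholds and tools (DESeq2 1.42.0), a replicate block, and leaving out each library.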

Additional observations from a re-analysis of the deposited data

Results flagged for a closer look

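The ABA response of OK100-oct differed from that of the wild type, by the interaction test, in the same direction for most genes that passed. The response was smaller in 267 and larger in 14 genes induced in OK100-oct, and for repressed genes these counts were 104 and 6. The named genes with a larger response, given as the log2 fold change in OK100-oct minus that in the wild type, were AT2G36690 (2.84), PSK1 (1.75), AT3G53980 (1.42), AT1G18980 (1.34) and AT2G05510 (1.02) among the induced genes. Among the repressed genes they were AT5G60760 (-2.37), EXPA17 (-2.05), CYP71B22 (-1.94), EXO70H4 (-1.75) and LAC8 (-0.88), where a negative value means a deeper fall in OK100-oct.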

How the results depend on the processing

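Of 131 named genes under 2459 alternative values, 2440 kept their direction and side of the threshold, 5 lost the threshold, 9 gained it and 5 reversed. The reversed values, all of log2 fold changes near 0, were those of AT3G55646 (-0.16) and SnRK2.2 (-0.0497) with library totals alone, AT3G55646 without OK100-oct ABA replicate 1 (-0.068) or control replicate 1 (-0.098), and AT1G79770 without OK100-oct ABA replicate 3 (0.051). Over all single libraries left out, the values of AT3G55646 ranged from -0.098 to 0.085 and those of AT1G79770 from -0.32 to 0.051. Requiring at least 10 counts in every OK100-oct library left fewer genes and gave 462 induced and 244 repressed. At 2-fold there were 1565 induced, 1365 repressed and 57 genes with a larger response than in the wild type, and with no fold minimum 5348, 5372 and 267. The number of genes with a larger response was 31 with no filter beyond 1 count and 12 at an adjusted p below 0.01, for which the cause was not tested beyond the number of genes admitted. Leaving out single libraries gave between 709 and 820 induced, 441 and 572 repressed and 16 and 40 with a larger response, the 40 being without OK100-oct control replicate 2. The replicate numbers were not used as pairs in the main fit. The correlations of same-numbered OK100-oct deviations were -0.131, -0.0342 and 0.0143, and those of different-numbered libraries lay between -0.0614 and 0.0968. Such correlations cannot tell whether same-numbered libraries were grown or harvested together. With the replicate block the counts were 731, 494 and 21, of which 725 induced and 489 repressed genes were shared with the fit without it. DESeq2 gave 736, 500 and 23. The 6 OK100-oct libraries alone gave 658 induced and 469 repressed, a fit that holds no test of the difference from the wild type. At this depth genes below about 3 counts per library could not be resolved.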

Other observations

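Some gene families outside the lists also moved with ABA in OK100-oct, and they were chosen after their values were seen. Of all tested genes 25.9% were higher and 26.1% lower by the adjusted p alone, and at 3-fold 3.56% were induced and 2.43% repressed. Of 276 tested genes matched as cytosolic ribosomal proteins by words in product names, 189 were lower and 11 higher by the adjusted p alone. At 3-fold only 2 of these genes were induced and 1 repressed. Their median log2 fold change was -0.52 in OK100-oct and -0.88 in the wild type. The words do not establish that each of the 276 is cytosolic. Of 48 SAUR genes, small auxin-responsive genes of growing tissue, 16 were repressed and 2 induced in OK100-oct, against 28 and 4 in the wild type, with medians of -0.90 in OK100-oct and -2.06 in the wild type. In the lipid-transfer protein superfamily 10 of 53 genes were induced and 3 repressed. Of 41 glutathione S-transferase genes, which attach glutathione to toxic compounds, 22 were higher and 5 lower by the adjusted p alone.

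Of 76 tested plastid-encoded genes 26 were higher with ABA in OK100-oct and none was lower by edgeR's adjusted p, against 25.9% and 26.1% of all tested genes. None was called at 3-fold. Their median log2 fold change was 0.70, against 0.21 in the wild type. The plastid share of all counts was 0.0691% in OK100-oct ABA replicate 2 and between 0.0307% and 0.0409% in the other OK100-oct libraries, so that 1 library carried the highest values. That library also held the counts of seed storage genes given above.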
